A study of Perna viridis with 2 samples.

Results

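Proteasome subunits and enzymes of the ubiquitin pathway were followed in the mantle of the green mussel Perna viridis, in the periostracal groove and in the submarginal zone. The members were the assembled genes whose product name contained proteasome, ubiquitin or cullin, or began with PSMA, PSMB, PSMC, PSMD, UBE, UBA, CUL, RNF, TRIM, FBX or USP followed by a digit, without ubiquinone, ubiquinol, NADH dehydrogenase, BIRC and TRAF names. This rule found 460 of 78458 genes, all with a value in both regions. The 2 TRAF7 ligase entries that it excluded are not counted. Each name is the closest database entry of an assembled fragment. Genes of a family may therefore divide reads among them, and some may be split over several entries.

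The groove, which separates the outer fold of the mantle edge from the middle one, secretes the periostracum, the organic skin of the shell. The submarginal zone is the strip from the folds to the pallial line. Both groups came from untreated mature mussels collected at the coast, of unstated genotype and sex, and tissue of 6 animals, with shells 6 to 7 cm long, was pooled into each sample. All cell types were included. Each region has 1 deposited profile in TPM, a length-adjusted unit scaled to a fixed total over all genes, and the design text speaks of 3 replicates. Every value was a whole multiple of 1/300, as a mean of 3 values with 2 decimals is, so the values were read as the authors' means and carry no SD, n or p-value. No difference below has a replicate check, and the read depth is unknown. The value column of both tables carries the groove's sample name. The tables were assigned to regions by the sample record that lists each, and every direction below would turn if they had been exchanged.

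Ubiquitin is a small protein that cells attach to other proteins. An activating enzyme (E1) charges it, a conjugating enzyme (E2) carries it, and a ligase (E3) chooses the target. Deubiquitinases take it off again. Chains of ubiquitin commonly send a protein to the 26S proteasome, a barrel-shaped protease (the 20S core) capped by a 19S particle that recognises, unfolds and feeds in the substrate. The 19S particle is divided into a base, with a ring of ATPases, and a lid.

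The comparison used genes with 10 TPM or more in at least 1 region, as the log2 ratio of groove over submarginal zone with 1 TPM added to both. Of the 460 members 77 reached that level, and 383 did not. A single member (1.30% of 77) was 4-fold or more higher in groove tissue, against 9.45% of all 5800 genes that reached 10 TPM. In submarginal tissue 6 members (7.79%) were 4-fold or more higher, against 12.4% of all genes. In either direction 21.8% of all genes passed, and both member shares were below those of all genes. The direction was more one-sided, with 69 of the 77 (89.6%) lower in the groove, against 72.4% of all genes, although 8 of the 77 turned sign under some scaling. Their median log2 ratio was -1.11, against -0.55 over all genes. With median-of-ratios scaling the median of all genes moved to -0.04, and the genes past 4-fold became 640 higher in groove tissue and 490 in submarginal tissue, against 548 and 719 as deposited. Of the 68 members that then reached 10 TPM, 1 was past 4-fold in groove tissue. In submarginal tissue 4 (5.88%) were, against 10% of the 4897 genes that then reached 10 TPM. From 1 TPM upward the gap was smaller, with a median of -0.43 for the members, -0.33 for those outside the proteasome subunits and -0.32 for all genes. At a 2-fold threshold 3 of the 77 (3.90%) were higher in groove tissue, against 15.2% of all genes. In submarginal tissue 47 (61.0%) were higher, against 27.6%. At this threshold the excess depended on scaling. With median-of-ratios scaling 12 of 68 members (17.6%) were 2-fold higher in submarginal tissue, against 17.3% of all genes. Under that scaling 54 of the 68 (79.4%) were still lower in the groove, against 51.7% of all genes. Outside the 19S and 20S subunits 22 of 36 (61.1%) were lower under it. As deposited, 37 of 45 outside the subunits (82.2%) were lower, against 72.4% of all genes. Of the 47, 32 were 19S or 20S subunits. Outside these subunits 15 of 45 genes (33.3%) were 2-fold higher in the submarginal zone, nearer to the share of all genes. In whole tissue, fewer cells of a type and less RNA per cell cannot be told apart.

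**Figure D1:**
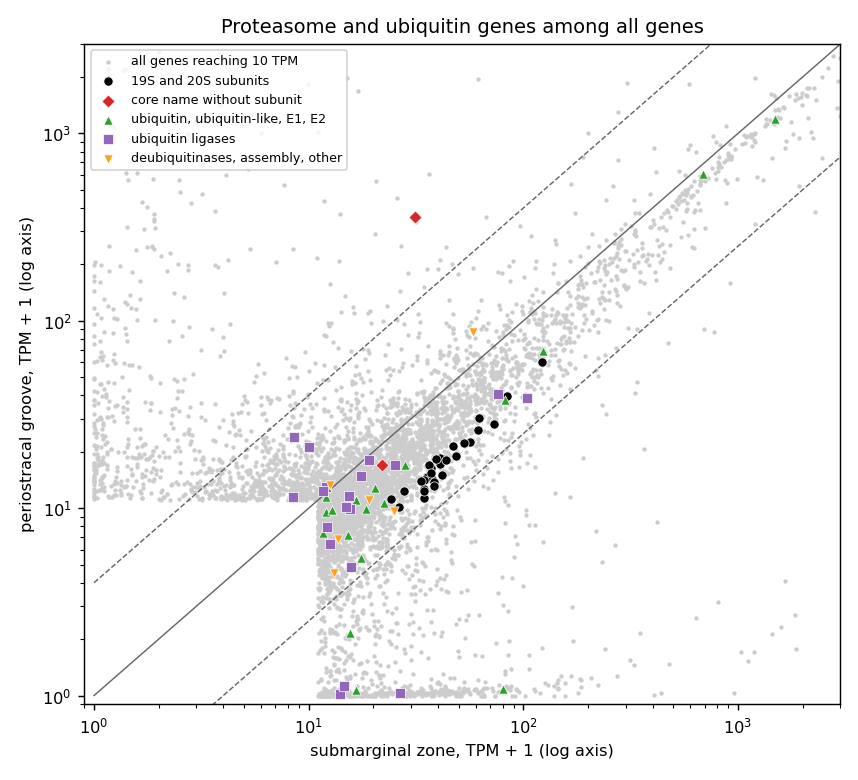
Each point is 1 gene reaching 10 TPM in either region, with TPM + 1 in the submarginal zone on the x axis and TPM + 1 in the groove on the y axis (both log axes). The solid line marks equal values and the dashed lines 4-fold differences of TPM + 1, grey points are all genes, and genes beyond the upper ends of the axes are not shown. The 32 proteasome subunits (black) form a narrow band below the solid line, 1 gene named for the proteasome core (red) lies above the upper dashed line, and 6 ubiquitin pathway genes lie below the lower one.

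The 20S core is built of rings of alpha subunits, which form the gate, and beta subunits, which hold the protease sites. All 7 alpha and 7 beta subunits were found, each as 1 gene above 10 TPM, and all 14 were lower in the groove. PSMB5, which carries the chymotrypsin-like site, had 21.4 TPM in groove tissue and 55.6 TPM in submarginal tissue. PSMB6, with the caspase-like site, had 17.3 TPM in groove tissue and 42.8 TPM in submarginal tissue. PSMB7, with the trypsin-like site, was the most abundant core subunit in both regions, with 38.5 TPM in groove tissue and 82.7 TPM in submarginal tissue. The catalytic subunits thus differed by much the same factor, 2.60-, 2.47- and 2.15-fold lower in the groove. The remaining beta subunits, PSMB1 to PSMB4, lay between 17.2 and 18.01 TPM in groove tissue and between 39.9 and 47.5 TPM in submarginal tissue, without overlap. Among the alpha subunits PSMA1 had 25.3 TPM in groove tissue and 60.6 TPM in submarginal tissue. The gene named 20S subunit alpha 4, which in the systematic numbering is PSMA7, had 27.01 TPM in groove tissue and 72.1 TPM in submarginal tissue. PSMA2, PSMA3, PSMA4 and PSMA6 lay between 15.4 and 17.4 TPM in groove tissue and between 35.5 and 39.9 TPM in submarginal tissue. PSMA5 showed the widest gap of the core, with 13.2 TPM in groove tissue and 36.4 TPM in submarginal tissue, a log2 ratio of -1.39. PSMB7 showed the narrowest, with a log2 ratio of -1.08. The alpha subunits had a median log2 ratio of -1.23 and the beta subunits one of -1.24. The remaining core entries were 2 fragments of the alpha 3 subunit (PSMA4), at 0 TPM in the groove and below 1 TPM in the submarginal zone.

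The ATPase ring of the 19S base, which unfolds substrates, was found with all 6 of its subunits, and each was lower in the groove. PSMC6, named regulatory subunit 10B, was the most abundant, with 29.2 TPM in groove tissue and 60.8 TPM in submarginal tissue. PSMC3, named subunit T5, had 21.3 TPM in groove tissue and 51.6 TPM in submarginal tissue. PSMC2 had the widest gap of the 32 subunits, with 10.3 TPM in groove tissue and 33.3 TPM in submarginal tissue, 3.23-fold lower in the groove. PSMC1, PSMC4 and PSMC5 lay between 13.7 and 20.55 TPM in groove tissue and between 34.6 and 45.9 TPM in submarginal tissue. The ring's median log2 ratio was -1.26. The scaffold proteins and ubiquitin receptor of the base had the same direction. PSMD2 (subunit N1) had 14.4 TPM in groove tissue and 36.2 TPM in submarginal tissue. PSMD1, the other scaffold, had 10.2 TPM in groove tissue and 23.2 TPM in submarginal tissue. The receptor PSMD4 had 11.3 TPM in groove tissue and 26.9 TPM in submarginal tissue.

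The lid, which removes ubiquitin from arriving substrates, was found with 9 subunits, all lower in the groove. Its deubiquitinating subunit PSMD14 (N11) had 13.0 TPM in groove tissue and 32.2 TPM in submarginal tissue. PSMD3 had 14.0 TPM in groove tissue and 40.6 TPM in submarginal tissue. PSMD12 had 12.1 TPM in groove tissue and 37.2 TPM in submarginal tissue. PSMD13 (N9) had 12.8 TPM in groove tissue and 37.5 TPM in submarginal tissue. These 3 lay at log2 ratios of -1.48, -1.55 and -1.49. PSMD6, PSMD7, PSMD8 and PSMD11 lay between 9.09 and 13.2 TPM in groove tissue and between 25.2 and 33.6 TPM in submarginal tissue. The small subunit DSS1 (SEM1), which is also known as a partner of other complexes, was the most abundant of all subunits, with 59.2 TPM in groove tissue and 120.5 TPM in submarginal tissue. It also had the smallest difference of the 32, a log2 ratio of -1.01. The lid's median log2 ratio of -1.44 lay below the -1.24 of the core, and whether this gap exceeds the spread between animals was not tested.

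Across all 32 subunits the submarginal zone exceeded the groove by 2.03- to 3.23-fold (TPM without a pseudocount). The middle 50% of their log2 ratios spanned 0.21, against 1.20 over all genes reaching 10 TPM. The ribosomal proteins, another housekeeping complex, lay closer together and nearer to 0. The 53 ribosomal protein symbols reaching 10 TPM had a median log2 ratio of -0.29 and a middle 50% spanning 0.13. The subunits' summed TPM was 582 in groove tissue and 1419.8 in submarginal tissue. This sum leaves out the 3 genes named proteasome endopeptidase complex, which name no subunit. Together those 3 had 373 TPM in groove tissue and 55.0 TPM in submarginal tissue, most of it from 1 gene described below. Median levels of the lid and base scaffold were below those of the core and ATPases in both regions, although single subunits such as DSS1 were not. The base scaffold class here includes the receptor PSMD4, whose values are its medians. The median was 12.8 TPM for the lid, 11.3 TPM for the base scaffold class, 17.3 TPM for the core and 18.8 TPM for the ATPases in the groove. In the submarginal zone these medians were 33.6, 26.9, 41.8 and 44.2 TPM. The size of the difference depends on scaling, since 4201 of the 5800 genes were below their submarginal level in the groove. Relative to the median of all genes the subunits lay 0.71 log2 units lower as deposited and 0.79 lower with median-of-ratios scaling, which left all 32 lower in the groove but only 6 of them 2-fold lower (17.3% of all genes).

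**Figure D2:**
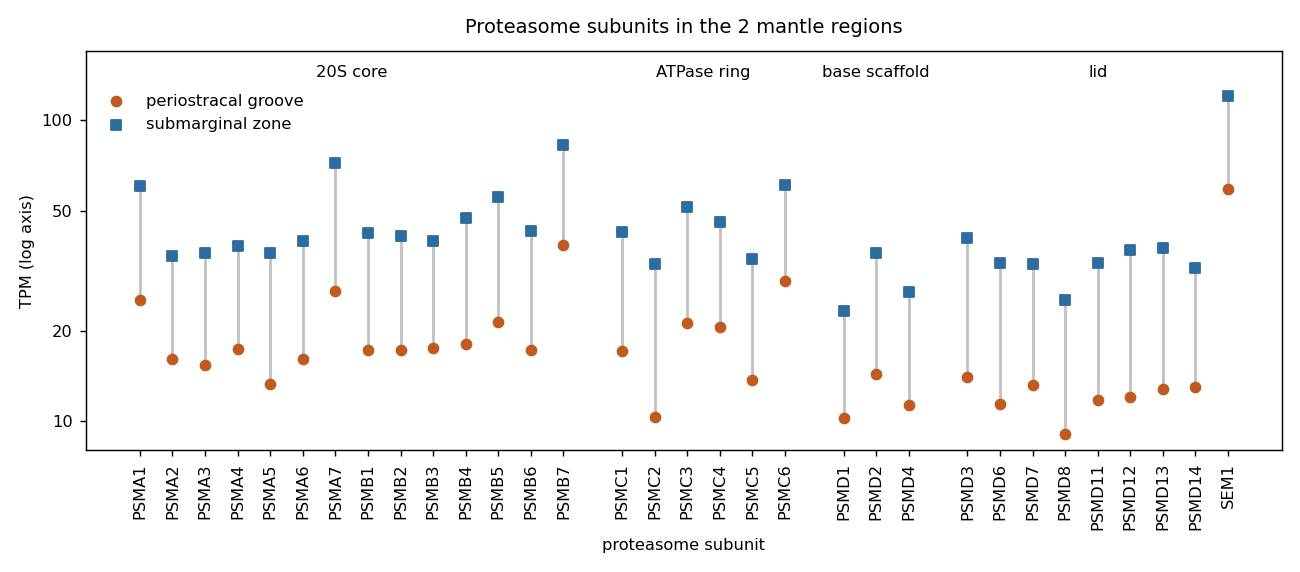
Level of each of the 32 proteasome subunits in TPM (log axis) in the periostracal groove (circles) and the submarginal zone (squares), 1 deposited value per region, joined by a line. Every circle lies below its square, and the lengths of the lines are similar from PSMB7 (38.5 and 82.7 TPM) to PSMD8 (9.09 and 25.2 TPM).

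Factors that help build the proteasome were low in both regions. PSMD10, a chaperone of the base in yeast and mammals, had 3.49 TPM in groove tissue and 12.2 TPM in submarginal tissue. PSMD5 and PSMD9, which serve the same step, had 2.48 and 2.44 TPM in groove tissue and 7.91 and 7.41 TPM in submarginal tissue. These base chaperones were thus also lower in the groove. The core assembly chaperones differed less, with chaperone 4-like at 10.03 TPM in groove tissue and 18.2 TPM in submarginal tissue and chaperone 3-like at 3.55 TPM in groove tissue and 3.74 TPM in submarginal tissue. The activator subunit 4 (PA200), a cap that binds the core without ubiquitin, had 1.61 TPM in groove tissue and 3.30 TPM in submarginal tissue.

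A single gene named for the proteasome went far the other way. TRINITY_DN63615_c0_g1, matched to a sea slug (Elysia marginata) entry called proteasome endopeptidase complex, had 355 TPM in groove tissue and 30.2 TPM in submarginal tissue, a log2 ratio of 3.52. It stood above PSMB7, the highest named core subunit, in the groove and below it in the submarginal zone. A pair of further genes carry the same name. TRINITY_DN2711_c1_g1 had 16.03 TPM in groove tissue and 21.0 TPM in submarginal tissue. TRINITY_DN2711_c1_g2 had 1.49 TPM in groove tissue and 3.87 TPM in submarginal tissue. The name gives no subunit, and all 14 core subunits are accounted for by other genes. Whether the groove-high gene encodes a proteasome subunit was not tested. Genes of this name are kept apart from the core and the subunits in every median and sum of these. Without the genes of this name no member was 4-fold higher in the groove.

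Ubiquitin itself is made as fusions to ribosomal proteins and as polyubiquitin. The fusion genes were the most abundant members. The S27a fusion had 1189 TPM in groove tissue and 1488 TPM in submarginal tissue. The L40 fusion had 604 TPM in groove tissue and 686 TPM in submarginal tissue. Their log2 ratios of -0.32 and -0.18 were like the ribosomal proteins' and turned to 0.12 and 0.26 with median-of-ratios scaling. A polyubiquitin gene, TRINITY_DN3281_c0_g1, was by contrast nearly silent in the groove, with 0.07 TPM in groove tissue and 15.6 TPM in submarginal tissue. The 9 remaining ubiquitin entries stayed below 4 TPM in both regions. Of the ubiquitin-like modifiers, a SUMO gene (small ubiquitin-related modifier) had 36.6 TPM in groove tissue and 81.3 TPM in submarginal tissue. UFM1, the ubiquitin-fold modifier, had 6.16 TPM in groove tissue and 14.2 TPM in submarginal tissue. ATG12, which acts in autophagy, had 8.57 TPM in groove tissue and 11.01 TPM in submarginal tissue. The protein with IQ and ubiquitin-like domains had 9.66 TPM in groove tissue and 21.4 TPM in submarginal tissue.

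Of 5 activating enzymes only UBA1, the main E1 for ubiquitin, reached 10 TPM. It had 10.1 TPM in groove tissue and 15.6 TPM in submarginal tissue, a log2 ratio of -0.58 close to the median of all genes. The E1 subunit for SUMO had 2.45 TPM in groove tissue and 8.05 TPM in submarginal tissue.

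Among 35 conjugating enzymes, 10 reached 10 TPM and all 10 were lower in the groove as deposited (median log2 ratio -0.79), of which 2 turned with median-of-ratios scaling. UBE2D enzymes, which work with many ligases, were the most abundant. The leading gene, TRINITY_DN340_c0_g2, had 67.6 TPM in groove tissue and 122 TPM in submarginal tissue. Another UBE2D, TRINITY_DN1181_c0_g1, had 0.08 TPM in groove tissue and 79.1 TPM in submarginal tissue, the lowest log2 ratio of any member at -6.21. The other UBE2D entries were present in both regions, the next at 8.72 TPM in groove tissue and 11.8 TPM in submarginal tissue. UBE2C, which works with the anaphase-promoting complex in mitosis, had 1.17 TPM in groove tissue and 14.6 TPM in submarginal tissue. UBE2S, which extends chains for the same ligase, had 8.94 TPM in groove tissue and 17.6 TPM in submarginal tissue. UBE2N, which builds lysine-63 chains, had 15.97 TPM in groove tissue and 27.2 TPM in submarginal tissue. UBE2A, the homologue of yeast Rad6, had 11.8 TPM in groove tissue and 19.5 TPM in submarginal tissue. UBE2G1 had 4.44 TPM in groove tissue and 16.55 TPM in submarginal tissue.

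Ubiquitin ligases made up 296 of the 460 members, but only 19 reached 10 TPM. Of these none was 4-fold higher in the groove and 3 were in the submarginal zone, with 14 lower in the groove and 5 higher. The 3 are 15.8% of the ligases, near the 12.4% of all genes, and the 14 are 73.7%, near the 72.4% of all genes. Their median log2 ratio of -0.58 was close to the -0.55 of all genes, whereas the proteasome's was -1.26. The ligases' summed TPM was 736 in groove tissue and 989 in submarginal tissue. The log2 ratio of these sums, -0.43, turned to 0.016 with median-of-ratios scaling.

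Cullins are the scaffolds of the largest group of multi-part ligases. Cullin 4 had 8.91 TPM in groove tissue and 14.6 TPM in submarginal tissue. CUL3, the partner of BTB and kelch-like adaptors, had 5.47 TPM in groove tissue and 11.6 TPM in submarginal tissue. Cullin 1 had 5.35 TPM in groove tissue and 9.37 TPM in submarginal tissue. All 5 cullins were lower in the groove as deposited, but cullin 2 and CUL5, the least abundant, turned with median-of-ratios scaling. F-box proteins bring substrates to cullin 1. Of 48 such genes 4 reached 10 TPM. A FBXO39 gene, TRINITY_DN390_c0_g1, was the most abundant with 37.8 TPM in groove tissue and 103 TPM in submarginal tissue. A second FBXO39 gene, TRINITY_DN1599_c0_g1, had 0.02 TPM in groove tissue and 13.0 TPM in submarginal tissue. FBXO36 had 3.87 TPM in groove tissue and 14.8 TPM in submarginal tissue. FBXO4, which was close to equal, had 12.03 TPM in groove tissue and 11.05 TPM in submarginal tissue.

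TRIM proteins, RING ligases with B-box and coiled-coil domains, formed the largest class with 112 genes, of which 8 reached 10 TPM. Of the 19 ligases reaching 10 TPM, 2 were 2-fold higher in the groove, where 15.2% of all genes were. In submarginal tissue 5 (26.3%) were 2-fold higher, near the 27.6% of all genes. The 2 on the groove side were TRIM genes. A TRIM2_3 gene, TRINITY_DN14804_c0_g1, had 22.9 TPM in groove tissue and 7.51 TPM in submarginal tissue (log2 ratio 1.49). Another, TRINITY_DN1496_c0_g2, had 20.3 TPM in groove tissue and 9.04 TPM in submarginal tissue (log2 ratio 1.08). A further gene of that name, TRINITY_DN12229_c0_g1, was lower in the groove, with 15.9 TPM in groove tissue and 24.3 TPM in submarginal tissue. The most abundant TRIM gene matched TRIM56, which in mammals acts in innate immunity. It had 39.7 TPM in groove tissue and 74.9 TPM in submarginal tissue. TRIM9_67 was close to equal with 17.1 TPM in groove tissue and 18.1 TPM in submarginal tissue. The TRIM13 genes split. TRINITY_DN15846_c0_g2 had 0.03 TPM in groove tissue and 25.7 TPM in submarginal tissue, while TRINITY_DN8027_c0_g1 had 13.9 TPM in groove tissue and 16.5 TPM in submarginal tissue. From 1 TPM upward, 37 TRIM genes were lower and 35 higher in the groove, and their median log2 ratio was -0.02, against -0.32 over all genes from 1 TPM.

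Many ligase names were carried by several assembled genes, and their sums did not share 1 direction. The 36 genes named RNF213, in vertebrates a giant ligase with an ATPase core, summed to 31.4 TPM in groove tissue and 20.5 TPM in submarginal tissue, and none reached 10 TPM. The 19 genes named TRIM71, the family of lin-41 of nematodes, summed to 32.1 TPM in groove tissue and 22.4 TPM in submarginal tissue. TRIM2_3 summed over 35 genes to 119 TPM in groove tissue and 102 TPM in submarginal tissue. TRIM56 summed over 37 genes to 86.9 TPM in groove tissue and 124 TPM in submarginal tissue. Whether these entries are separate genes or fragments was not tested.

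**Figure D3:**
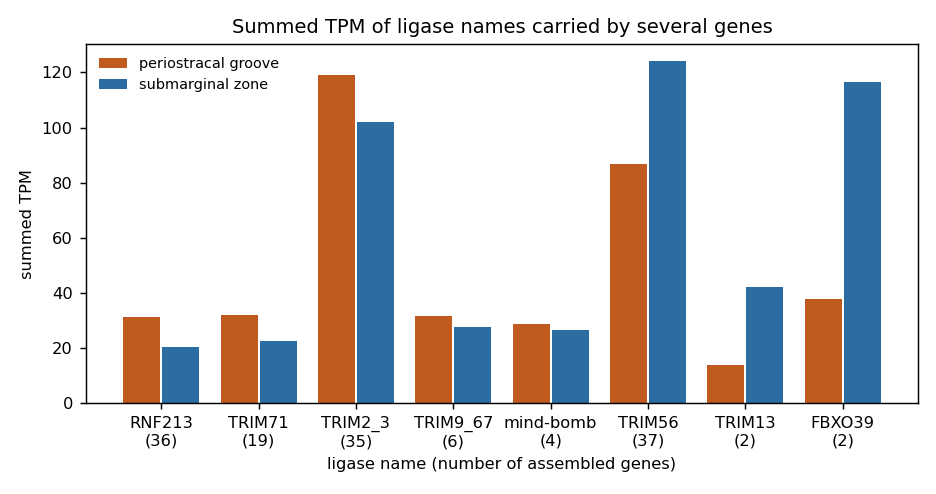
Bars give the summed TPM of all assembled genes with the same ligase name in the periostracal groove (left bar) and the submarginal zone (right bar), with the number of genes in brackets. RNF213, TRIM71 and TRIM2_3 stand higher in the groove, and TRIM56, TRIM13 and FBXO39 higher in the submarginal zone.

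Of 73 RNF-named RING ligases 2 reached 10 TPM. RNF11 had 10.5 TPM in groove tissue and 7.45 TPM in submarginal tissue. RNF103 had 9.10 TPM in groove tissue and 13.9 TPM in submarginal tissue. Of 58 HECT and other ligases 3 reached 10 TPM. NRDP1, which in mammals targets ErbB receptors, had 10.6 TPM in groove tissue and 14.4 TPM in submarginal tissue. An entry that joins the names of Itchy and NEDD4-like ligases had 11.3 TPM in groove tissue and 10.7 TPM in submarginal tissue. A HACE1-like HECT ligase, TRINITY_DN12811_c1_g3, had 0.12 TPM in groove tissue and 13.5 TPM in submarginal tissue, while another HACE1 entry had 1.45 TPM in groove tissue and 2.07 TPM in submarginal tissue. The 4 mind-bomb genes, ligases that act on Notch ligands in flies and vertebrates, summed to 28.8 TPM in groove tissue and 26.5 TPM in submarginal tissue.

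Of 52 deubiquitinases 2 reached 10 TPM. USP14, which binds the proteasome and trims chains there, had 8.70 TPM in groove tissue and 24.0 TPM in submarginal tissue. Its log2 ratio of -1.37 lay inside the range of the subunits. USP12_46 had 12.3 TPM in groove tissue and 11.5 TPM in submarginal tissue. A further hydrolase of unstated number had 7.00 TPM in groove tissue and 9.68 TPM in submarginal tissue. Of the 5 members placed in no class, the UBA-like domain-containing protein 2-A had 85.9 TPM in groove tissue and 57.2 TPM in submarginal tissue. UFD1, which extracts ubiquitinated proteins from membranes with p97, had 5.81 TPM in groove tissue and 12.6 TPM in submarginal tissue. PSMC3IP, which the rule takes by its first letters but which in mammals is a cofactor of meiotic recombination and no ATPase, had 0.67 TPM in groove tissue and 6.75 TPM in submarginal tissue.

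**Figure D4:**
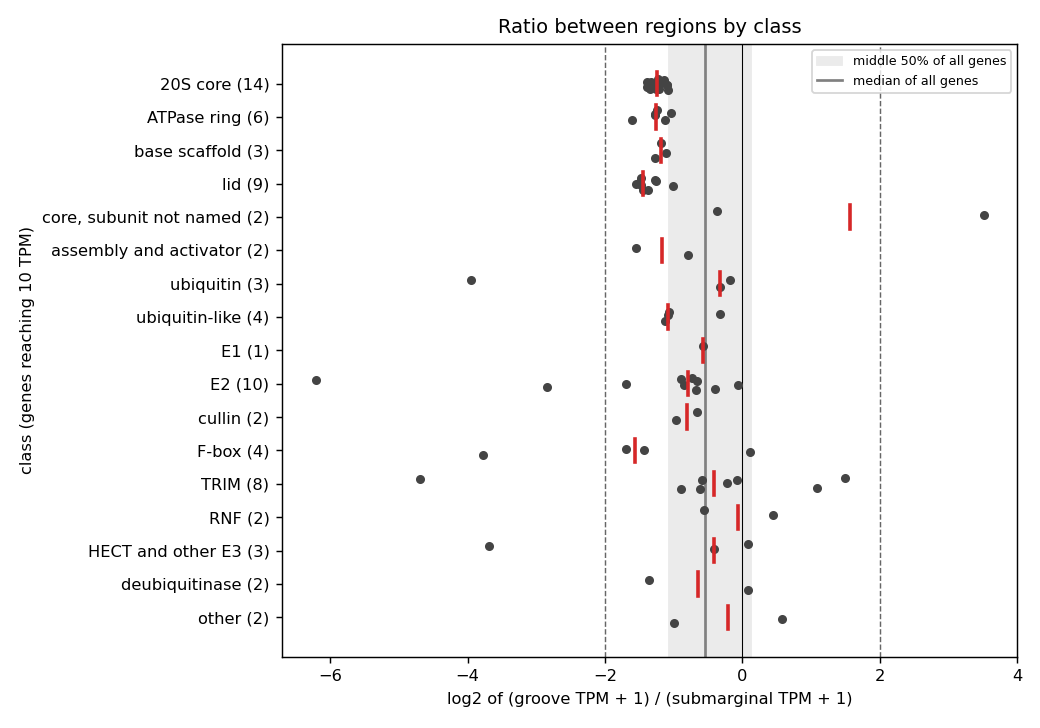
Each point is a member reaching 10 TPM, placed by its log2 ratio of groove over submarginal zone (TPM + 1), by class, with the number of genes in brackets and the class median as a red bar. The grey band and line are the middle 50% and median (-0.55) of all 5800 genes, and dashed lines mark 4-fold. The 4 subunit classes at the top form tight clusters, mostly to the left of the band (class medians -1.18 to -1.44), whereas ligases spread across it.

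The 6 members past 4-fold on the submarginal side were the UBE2D gene, TRIM13, polyubiquitin, FBXO39, the HACE1-like ligase and UBE2C. All but UBE2C were at 0.12 TPM or less in the groove. UBE2D, TRIM13, FBXO39 and HACE1 have another gene named for the same enzyme that both regions express. For UBE2D and HACE1 its name is written differently. All UBE2D genes together had 82.4 TPM in groove tissue and 220 TPM in submarginal tissue. Just under the minimum lay MARCH2, a membrane-bound RING ligase, at 0 TPM in groove tissue and 8.08 TPM in submarginal tissue. UBE2T, of DNA repair, had 0.45 TPM in groove tissue and 5.88 TPM in submarginal tissue. The ligase named CCNP1IP1 had 1.23 TPM in groove tissue and 9.49 TPM in submarginal tissue. By a rule set after these values were seen, 6 of 132 members at 5 TPM or more in the submarginal zone (4.55%) were at 0.2 TPM or less in the groove, against 5.42% of all genes, a share near the background. None of the 95 members at 5 TPM or more in the groove was at 0.2 TPM or less in the submarginal zone, against 3.61% of all genes.

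**Figure D5:**
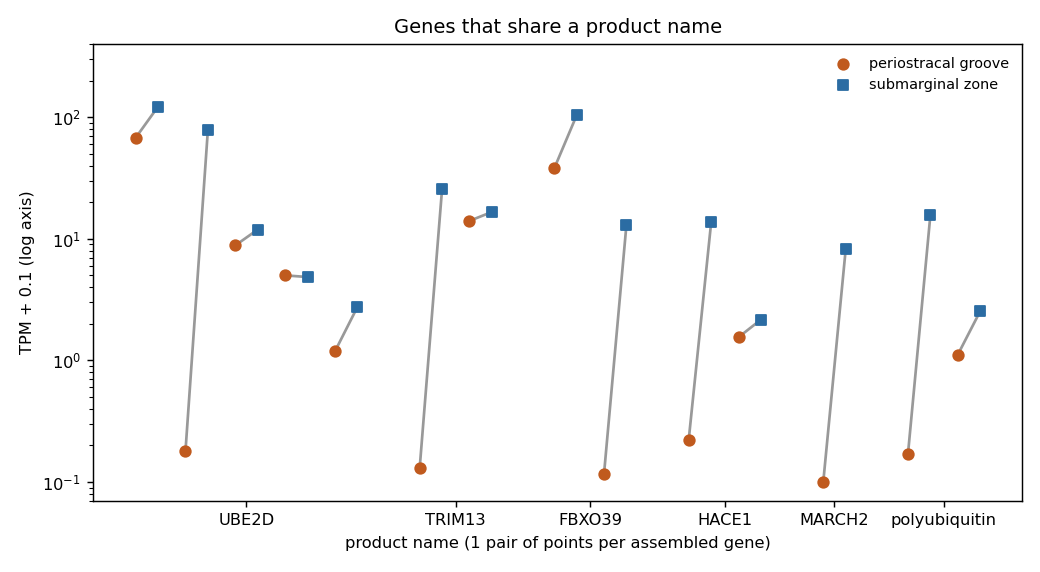
Each joined pair is 1 assembled gene, with TPM + 0.1 (log axis) in the periostracal groove (circle, left) and the submarginal zone (square, right). Genes are grouped by product, with differently written names of the same product joined. UBE2D, TRIM13, FBXO39 and HACE1 each hold 1 gene near the floor in the groove beside genes that both regions express.

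Markers of germ cells, cell division, cilia, muscle and haemocytes were read by the same rule. Of all genes reaching 10 TPM, 9.45% were 4-fold higher in groove tissue and 12.4% in submarginal tissue. Of 10 germ-cell genes reaching 10 TPM (16 listed), none was 4-fold higher in groove tissue and 9 were in submarginal tissue. The list summed to 58.5 TPM in groove tissue and 567 TPM in submarginal tissue. In the groove SPO11 and a minor PIWI entry, Siwi, were at 0. The main PIWI gene, PIWIa, had 19.3 TPM in groove tissue and 95.6 TPM in submarginal tissue. SPATA18 had 19.3 TPM in groove tissue and 27.5 TPM in submarginal tissue. SPATA7 was slightly higher in the groove, with 8.59 TPM in groove tissue and 7.09 TPM in submarginal tissue, and SPATA6 was near equal. The meiotic genes were near 0 in the groove. DMC1 had 0.30 TPM in groove tissue and 41.1 TPM in submarginal tissue. SYCP2 had 0.02 TPM in groove tissue and 8.46 TPM in submarginal tissue. The germ-line helicase DDX4 was present in both regions, with 5.17 TPM in groove tissue and 31.1 TPM in submarginal tissue. Of 12 cell-division genes reaching 10 TPM (15 listed), 1 was 4-fold higher in groove tissue and 10 in submarginal tissue. The 1 in groove tissue was Cyclin-A2-4, with 14.5 TPM in groove tissue and 1.87 TPM in submarginal tissue. The list summed to 56.4 TPM in groove tissue and 387 TPM in submarginal tissue. Cilia markers summed to 414 TPM in groove tissue and 1248 TPM in submarginal tissue, with none of 29 genes 4-fold higher in groove tissue and 4 in submarginal tissue. Muscle markers summed to 4589 TPM in groove tissue and 14462 TPM in submarginal tissue, with 1 of 8 genes past 4-fold in groove tissue and none in submarginal tissue. Haemocyte markers summed to 1681 TPM in groove tissue and 3646 TPM in submarginal tissue, with 2 of 20 genes past 4-fold in groove tissue and 4 in submarginal tissue. A large part of the difference between these sums was 1 C1q entry, MgC1q29, with 0.03 TPM in groove tissue and 958 TPM in submarginal tissue. Other C1q entries went the other way, such as C1q-like protein 2 with 56.8 TPM in groove tissue and 0.45 TPM in submarginal tissue. The median log2 ratios were -4.91 for germ cells, -2.76 for cell division and -1.53 for cilia. They were -1.17 for muscle and -0.60 for haemocytes, against -0.55 over all genes. The part of any of these cells in the proteasome and ubiquitin differences was not tested.

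Other genes of the pathway, outside the naming rule, were taken from a list of cullin partners, adaptors and further ligases and deubiquitinases. Of 130 such genes 25 reached 10 TPM. None was 4-fold higher in groove tissue, against 9.45% of all genes, and 7 (28.0%) were in submarginal tissue, against 12.4%. Of the 7, 4 came from the 6 kelch-like genes reaching 10 TPM. The median log2 ratio of the 25 was -0.93, against -0.55 over all genes. Values of this list are given as deposited only. The 7 were mostly substrate adaptors that were nearly silent in the groove. A KLHL28 gene had 0.21 TPM in groove tissue and 143 TPM in submarginal tissue. Other KLHL28 genes were near equal, with 5.36 and 1.38 TPM in groove tissue and 6.17 and 1.25 TPM in submarginal tissue. KLHL31 had 0.07 TPM in groove tissue and 43.2 TPM in submarginal tissue. The KLHL10 genes, in mouse an adaptor of CUL3 in the testis, had 0.10 and 0.06 TPM in groove tissue and 36.0 and 26.6 TPM in submarginal tissue. The SOCS box protein ASB17 had 0.08 TPM in groove tissue and 92.6 TPM in submarginal tissue. A gene of the ligase MARCH1_8 had 0.04 TPM in groove tissue and 28.7 TPM in submarginal tissue. Other MARCH1_8 genes had 1.82 and 2.18 TPM in groove tissue and 3.11 and 1.96 TPM in submarginal tissue. UHRF1, which acts in copying DNA methylation, had 2.86 TPM in groove tissue and 16.5 TPM in submarginal tissue. Regulators of cullins differed less. The COP9 signalosome strips NEDD8 from cullins. The 8 genes named for it (subunits 2 to 9) had a median log2 ratio of -0.74. COPS4 was at 15.1 TPM in groove tissue and 27.3 TPM in submarginal tissue. NEDD8 had 17.5 TPM in groove tissue and 33.5 TPM in submarginal tissue. CAND1, a cullin exchange factor, had 10.9 TPM in groove tissue and 21.5 TPM in submarginal tissue. UCH37, a deubiquitinase of the proteasome, had 4.50 TPM in groove tissue and 13.3 TPM in submarginal tissue, at a log2 ratio of -1.38 like USP14. The largest value in the other direction was OTU domain-containing protein 3, a deubiquitinase family member, with 11.75 TPM in groove tissue and 2.87 TPM in submarginal tissue.

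Most members were low. Of the 383 below 10 TPM, 235 were lower in the groove, 145 higher and 3 equal. In this range 144 stayed below 1 TPM in both regions and 2 were at 0 in both. The share lower in the groove was 61.4%, against 54.8% of all genes below 10 TPM. Low ligases, with 155 of 277 lower (56.0%), were near that background. Of the low deubiquitinases 37 of 50 (74.0%) were lower. The difference between these counts was not tested.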

How the data were processed

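Total RNA of pooled mantle tissue was treated with DNase, and TruSeq libraries (Illumina) were prepared from it, per the labels' protocols. The submitters' processing notes name fastp. Its version, the assembler and the quantifier are not given in sources used here. The authors deposited 1 TPM value per assembled gene and region. The sums were 999875 in groove tissue and 999820 in submarginal tissue. Of 78458 genes, 5 without values were left out. TPM keeps no read depth, so no counting interval or floor is given.

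Members were found by product name and sorted into classes by role. Subunits were assigned by name, with alpha 3, alpha 4, N and T numbers read in the systematic numbering. Log2 ratios used a pseudocount of 1 TPM, which understates low genes. A gene counted as different at 4-fold with the higher region at 10 TPM or more. With 1 profile per region no test was made. Named were up to 3 members with the highest mean per class, all 4-fold members, all subunits as needed and the 3 with the largest ratio at 5 to 10 TPM. Names outside this rule (among them PSMC3IP, PSMD5, PSMD9, RNF213, TRIM71, cullin 2 and mind-bomb) were chosen after their values were seen. Some members that this rule names are not reported here. The members, gene lists and rules were chosen with earlier results of these data known. From the list of other pathway genes, matches of the letters to unrelated proteins were removed after the names were seen. Values were computed with pandas 2.3.3 and numpy 2.4.6 in Python 3.11.15, and plots were drawn with matplotlib 3.10.9.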

Additional observations from a re-analysis of the deposited data

How the results depend on the processing

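Each alternative is given for the medians of all members, core, ATPase ring, lid and ligases, which were -1.11, -1.24, -1.26, -1.44 and -0.58 as reported. With a pseudocount of 0.1 TPM they were -1.16, -1.27, -1.30, -1.51 and -0.61. With 5 TPM they were -0.97, -1.08, -1.09, -1.21 and -0.44. Median-of-ratios scaling gave -0.69, -0.80, -0.82, -1.02 and -0.0052. Upper-quartile scaling gave -0.83, -0.94, -0.96, -1.15 and -0.28. Totals without the 10 most abundant genes gave -1.06, -1.18, -1.20, -1.39 and -0.53. A minimum of 5 TPM gave -0.82 for all members and -0.52 for ligases, and one of 1 TPM gave -0.43 and -0.26, against -0.32 over all genes. No minimum gave -0.23 for all members, -1.22 for the core and -0.074 for ligases. Summing genes of the same written name gave -1.12 for all members and -0.47 for ligases. Without domain-only names and ribosomal fusions all members had -1.13. All of these kept their direction.

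The log2 ratios of summed TPM, in the same order, were -0.48, -1.28, -1.26, -1.33 and -0.43 as reported. The core sum leaves out the genes named proteasome endopeptidase complex, whose own log2 ratio of sums was 2.76. Median-of-ratios scaling gave -0.034, -0.83, -0.82 and -0.89, and turned the ligases to 0.016. Upper-quartile scaling gave -0.17, -0.97, -0.96, -1.03 and -0.12. Totals without the 10 most abundant genes gave -0.42, -1.22, -1.21, -1.28 and -0.37. Without domain-only names and fusions all members had -0.65.

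Single classes also turned. With median-of-ratios scaling the medians turned to 0.24 for HECT and other ligases, 0.34 for RNF, 0.18 for TRIM and 0.12 for ubiquitin, and the sums to 0.031, 0.20, 0.25 and 0.15. With upper-quartile scaling the medians turned to 0.21 for RNF and 0.056 for TRIM, and the sums to 0.065 for RNF, 0.11 for TRIM and 0.013 for ubiquitin. Summing genes of the same name turned the medians of RNF to 0.18 and TRIM to 0.17. With no minimum the TRIM median was 0.0085. The cause was not tested.

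The 4-fold counts were 1 of 77 members in groove tissue and 6 in submarginal tissue, against 548 and 719 of all 5800 genes. At 2-fold they were 3 and 47, against 880 and 1601. A minimum of 5 TPM gave 1 and 10 members, against 825 and 1079 of all genes. The numbers reaching 5 TPM are not given here, so these counts are not shares. With a minimum of 1 TPM there were 1 and 11 of 316 members, against 1023 and 1420 of 37709 genes. With none there were 1 and 11 of 460 members, against the same counts of 78453 genes. A pseudocount of 5 TPM gave 1 and 3 of 77 members, against 350 and 425 of 5800 genes. UBE2C, FBXO39 and the HACE1-like ligase were then below 4-fold. Median-of-ratios scaling gave 4 of 68 members (5.88%) in submarginal tissue, against 10% of all genes. Summing genes of the same written name also gave 4 in submarginal tissue, without a matching count over all genes. It left the UBE2D gene and the HACE1-like ligase unmerged, because their other genes carry differently written names. Leaving out the genes named proteasome endopeptidase complex, an alternative chosen after seeing the data, gave 0 on the groove side.

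No paired analysis was possible because each region has 1 deposited profile. The depth behind TPM is unknown, so the precision of low values could not be given.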
